A study of Homo sapiens with 6 samples.

Results

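The 35 genes described here are the NF-kappaB pathway with its cytokine and chemokine outputs: 11 secreted ligands, the 5 NF-kappaB subunits, 7 IkappaB proteins and other regulators that restrain or modify the subunits, 7 receptors, adaptors and ubiquitin ligases, and 5 effectors. They were chosen by gene symbol, with earlier results of these data known, and each symbol matched 1 of the 60409 rows of the deposited tables. All 35 passed the filter on low counts, among 18583 genes tested. All libraries came from ACHN, an established human renal adenocarcinoma cell line, taken 48 h after siRNA transfection, which the controls had too. Group NC had a negative control siRNA, while siMEX3A_1 and siMEX3A_2 had separate siRNAs against MEX3A, a KH domain protein that binds RNA. Each group had 2 RNA sequencing libraries, 6 in all. Whether libraries of 1 group are separate cultures is not stated, so p-values here measure the spread of these libraries alone, and that spread may be technical. The study's title concerns cell cycle control by MEX3A in clear cell renal carcinoma. In bulk RNA of this kind, fewer cells expressing a gene and less RNA per cell cannot be told apart.

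Library totals lay between 18825750 and 19158723 counts. MEX3A itself had 93.3 and 106 normalized counts (counts scaled to a common library size) in NC. It had 56.6 and 65.3 in the siMEX3A_1 libraries and 73 and 76.1 in the siMEX3A_2 libraries. Both siRNA groups lay below NC, by 38.9% with siMEX3A_1 (log2 fold change -0.71, SE 0.17, adjusted p = 0.00655) and by 25.3% with siMEX3A_2 (-0.42, SE 0.17, adjusted p = 0.0644, which did not pass). At a mean of at least 50 counts the siMEX3A_2 value passed (adjusted p = 0.0489, and 0.0489 to 0.392 over the alternatives). The siMEX3A_1 call ended with DESeq2 (adjusted p = 0.0593) and in the authors' deposited table (adjusted p = 0.137), and its adjusted p ran from 0.00379 to 0.137 over the alternatives. Of 11 renal markers 10 were tested, with VIM the highest in every library, and CA9 had at most 5.85 normalized counts in any library. Of the leukocyte genes, PTPRC and CD3E had at most 2 normalized counts in any library, while CD14 and LYZ reached 13.7 and 18.9 in NC. ITGAM had 48.7 and 54.6 in NC and 51 and 59.1 with siMEX3A_2. With siMEX3A_1 it was lower, at 8.09 and 22.4. The summed leukocyte list was higher with siMEX3A_1 (611 to 631) and siMEX3A_2 (634 to 675) than in NC (378 to 396), mostly through CD68, a lysosomal protein gene. The summed fibroblast list was lower with siMEX3A_1 (862 to 948) than in NC (1423 to 1516) or with siMEX3A_2 (1241 to 1409), mostly through COL1A1. The 4 endothelial genes with a row summed to at most 12.7. The part of these markers in the members' values was not tested.

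NF-kappaB factors are dimers of related subunits that IkappaB proteins hold in the cytoplasm. Receptors for tumour necrosis factor, interleukin-1 and Toll-like receptor ligands lead, through TRAF and IRAK adaptors and ubiquitin ligases, to an IkappaB kinase that marks IkappaB for destruction (the canonical route), and receptors such as LTBR act through NFKB2 and RELB (the non-canonical route). The freed dimers switch on chemokines, cytokines, adhesion molecules and survival genes, and also their own inhibitors NFKBIA, NFKBIE and TNFAIP3, which end the signal. In tubular and carcinoma cells of the kidney the pathway is known for chemokine release that draws in neutrophils and monocytes.

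Sequences are shown because several members are textbook targets that carry a kappaB site, the DNA element bound by these dimers, just before their start. Promoter windows of RefSeq (build GRCh38.p14, the 250 bases before each annotated start) were found for 30 of the 35 members, 51 windows in all. For CCL2, CSF1, LIF, NFKBIE and RELB no entry was found in the set of windows used. The 10-base kappaB consensus, searched on both strands, stood in at least 1 window of 16 of these 30 genes. By window, 33.3% of the members' windows held it, against 9.96% of 35114 windows of all genes. The shorter motif GGNNNTTCC, which can lie inside the kappaB consensus, stood in 41.2% of the members' windows and 17.1% of all windows. It was the only one of the pair in BCL3, CXCL8, ICAM1 and TNFAIP2. A match describes letters in the window and is not a measurement of binding, and the files give no coordinates on the build they were counted on. The windows below are printed on the gene's own strand for the members whose transcripts the results turn on, with the kappaB consensus in capitals. In CCL20, NFKBIA, TNFAIP3 and BIRC3 the consensus reads on the opposite strand, so its complement is in capitals. One match is capitalized in each stretch. TNFAIP3 has another on the opposite strand 55 bases before its start, in lower case within its stretch, and in CXCL1, CXCL2, CXCL3 and NFKBIB a match on the opposite strand overlaps the capitals, shifted by 1 base.
CXCL1, chr4:73869294-73869343, plus strand: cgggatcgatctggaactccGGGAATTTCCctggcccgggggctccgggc
CXCL2, chr4:74099244-74099293, minus strand: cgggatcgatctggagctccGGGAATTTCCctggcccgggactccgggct
CXCL3, chr4:74038739-74038788, minus strand: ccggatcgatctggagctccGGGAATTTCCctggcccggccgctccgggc
CCL20, chr2:227813743-227813792, plus strand: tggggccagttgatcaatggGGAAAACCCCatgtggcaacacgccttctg
IL6, chr7:22727107-22727156, plus strand: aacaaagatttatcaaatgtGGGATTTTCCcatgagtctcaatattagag
NFKB1, chr4:102501290-102501339, plus strand: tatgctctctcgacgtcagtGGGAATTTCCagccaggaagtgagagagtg
NFKBIA, chr14:35404801-35404850, minus strand: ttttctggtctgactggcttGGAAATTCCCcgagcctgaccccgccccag
NFKBIB, chr19:38899921-38899968, plus strand: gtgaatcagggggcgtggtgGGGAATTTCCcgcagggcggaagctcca
TNFAIP3, chr6:137867172-137867221, plus strand: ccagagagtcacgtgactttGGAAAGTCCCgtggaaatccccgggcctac
TNIP1, chr5:151081047-151081096, minus strand: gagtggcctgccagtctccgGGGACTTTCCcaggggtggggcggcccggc
BIRC3, chr11:102317265-102317314, plus strand: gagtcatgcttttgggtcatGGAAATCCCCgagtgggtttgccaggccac

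CXCL1, CXCL2 and CXCL3 carried the same 10 letters 79, 78 and 79 bases before their starts. Over the first 30 bases printed, CXCL1 and CXCL2 were identical at 29 positions, CXCL1 and CXCL3 at 28, and CXCL2 and CXCL3 at 29. In the next pair the capitals mark the shorter motif.
CXCL8, chr4:73740458-73740506, plus strand: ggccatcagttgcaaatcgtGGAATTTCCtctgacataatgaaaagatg
ICAM1, chr19:10270914-10270962, plus strand: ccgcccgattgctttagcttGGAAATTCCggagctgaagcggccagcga

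The windows of BIRC2, IL11, IL1R1, IRAK2, LTBR, PTGS2, RELA, SOD2, TRAF1 and TRAF2 held neither motif.

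Most members rose with siMEX3A_2, while similar numbers rose and fell with siMEX3A_1. A gene was called at an edgeR quasi-likelihood adjusted p under 0.05, adjusted over all genes tested. With siMEX3A_1, 14 of 35 members rose and 15 fell, where 27.0% of all tested genes rose and 25.9% fell (52.9% in either direction). With siMEX3A_2, 24 rose and 4 fell, against 25.2% and 25.7% of all tested genes (50.9% in either direction). Because the members were chosen with earlier results of these data known, these shares describe the list and do not test it. The median log2 fold change of the members was -0.06 with siMEX3A_1 and 0.47 with siMEX3A_2, and the medians over all tested genes were -0.01 and -0.0023. Changes of at least 2-fold were called in 11 members with siMEX3A_1, where 16.8% of all tested genes changed as much, and in 12 with siMEX3A_2, against 13.4%. The library values of 33 members did not overlap between siMEX3A_1 and NC, and 32 did not between siMEX3A_2 and NC. Among all tested genes 74.2% and 75.7% did not overlap, so with 2 libraries a group this count says little. Both comparisons use the same NC libraries, so their values for a member are given side by side and are not independent of each other.

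**Figure D1:**
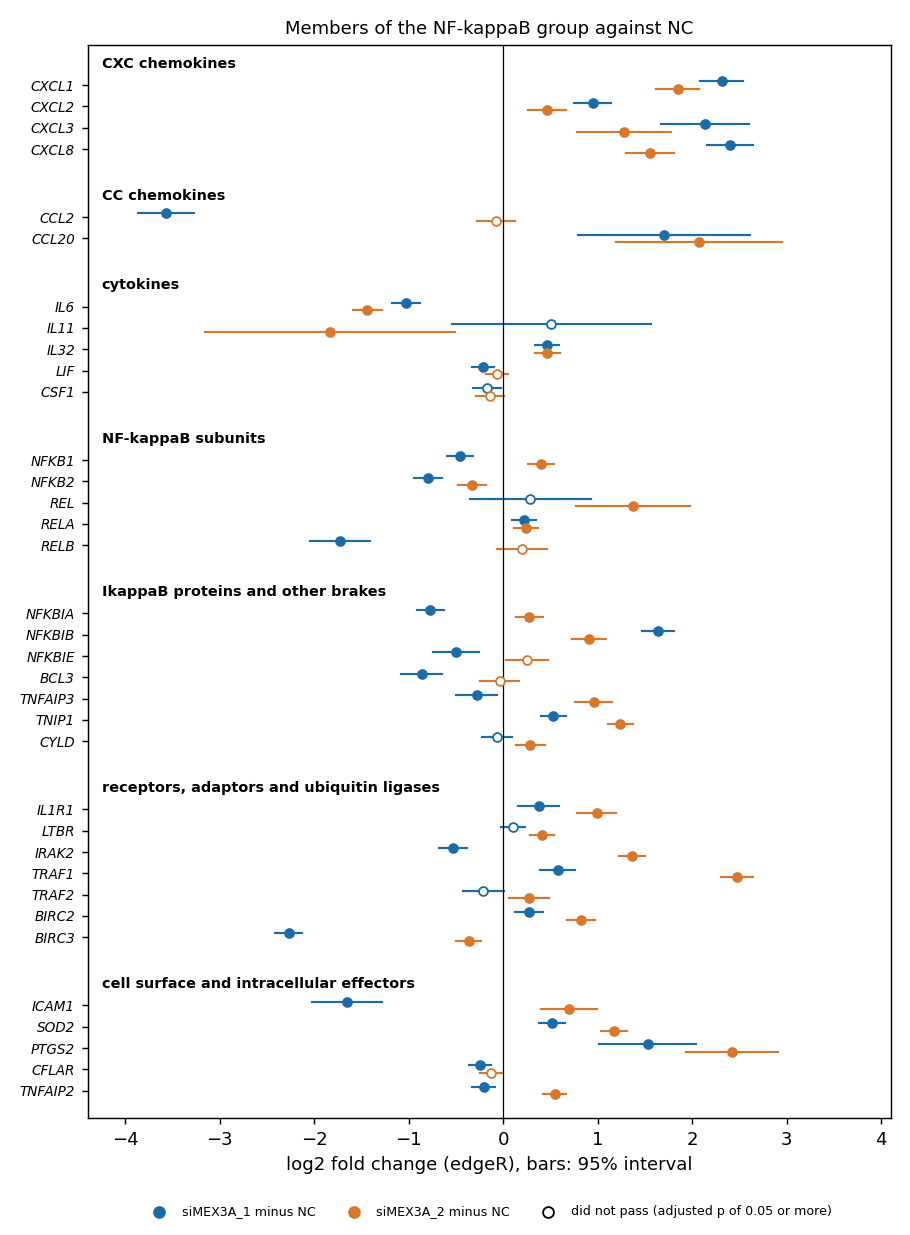
Log2 fold change of each of the 35 members against NC on the x axis, with its 95% interval, for siMEX3A_1 and siMEX3A_2, ordered by role on the y axis. Filled points passed the test and open points did not. The 4 CXC chemokines lie right of 0 with both siRNAs, and CCL2, RELB, BIRC3 and ICAM1 lie below -1 with siMEX3A_1 and above it with siMEX3A_2.

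The CXC chemokines, ligands that attract neutrophils, rose with both siRNAs. CXCL8 had 165 and 161 normalized counts in NC, 779 and 939 with siMEX3A_1 and 461 and 496 with siMEX3A_2. The 3 groups were fully separate, in the order NC, siMEX3A_2, siMEX3A_1. Its log2 fold changes were 2.40 (SE 0.11, adjusted p = 1.21e-07) and 1.55 (SE 0.11, adjusted p = 4.36e-06). CXCL1 was in the same order, with 313 and 385, then 1218 and 1293 with siMEX3A_2, then 1649 and 1821 with siMEX3A_1. Its log2 fold changes were 2.31 (SE 0.10, adjusted p = 9.19e-08) with siMEX3A_1 and 1.85 (SE 0.10, adjusted p = 8.23e-07) with siMEX3A_2. CXCL3, the lowest count of the 4, went from 47.7 and 30.2 to 164 and 179.6 with siMEX3A_1 and 89 and 100.1 with siMEX3A_2. Its NC libraries were apart from each other and still lay below both siRNA groups (2.14, SE 0.21, adjusted p = 1.78e-05 and 1.28, SE 0.22, adjusted p = 0.000896). CXCL2 rose least, from 418 and 436 to 878 and 768 with siMEX3A_1 and 557 and 623 with siMEX3A_2. Its log2 fold changes were 0.95 and 0.47. CXCL1, CXCL2 and CXCL3 are close copies, so reads could be split between them. In the GENCODE release 29 transcripts, 4.81% of the 50-base windows of CXCL1, 12.5% of CXCL2 and 6.01% of CXCL3 also occur in another gene, in each case another of these 3, while CXCL8 shares 0.

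**Figure D2:**
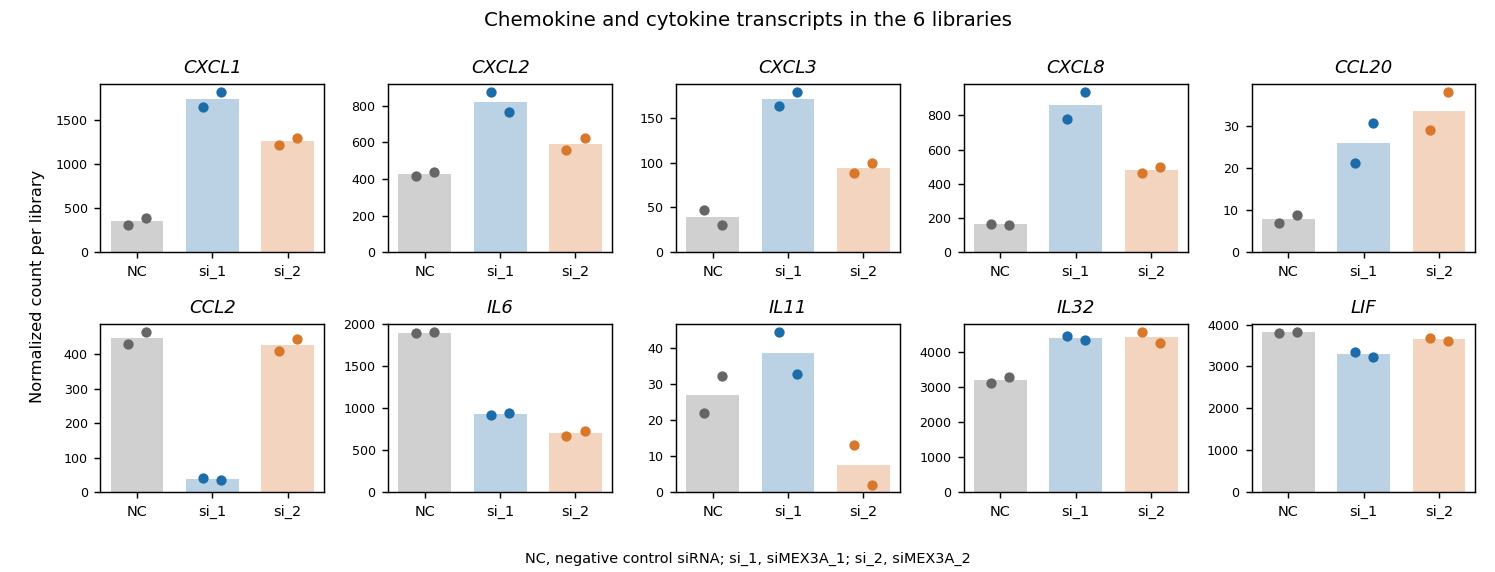
Normalized count on the y axis for 10 chemokine and cytokine genes, 1 point for each library and a bar for the group mean, with the groups NC, siMEX3A_1 (si_1) and siMEX3A_2 (si_2) on the x axis. CXCL1 and CXCL8 stand highest with siMEX3A_1, CCL2 is low with siMEX3A_1 only, and IL6 is lower in all 4 siRNA libraries than in NC.

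The CC chemokines did not move together. CCL2, which attracts monocytes, had 429.9 and 465 normalized counts in NC and 408 and 443 with siMEX3A_2, and these groups overlapped (-0.07, SE 0.09, adjusted p = 0.536, 95% interval -0.28 to 0.13). With siMEX3A_1 it had 41.5 and 33.7, below every other library, and this was the largest fall among the members (-3.57, SE 0.13, adjusted p = 3.75e-08). CCL20, the ligand of the receptor CCR6, was a low transcript with 6.95 and 8.78 normalized counts in NC. It rose to 21.2 and 30.6 with siMEX3A_1 (1.70, SE 0.40, adjusted p = 0.00537) and to 29 and 38.1 with siMEX3A_2 (2.07, SE 0.39, adjusted p = 0.00161), and the values of both siRNA groups lay above NC. The authors' deposited table did not call CCL20 with siMEX3A_1 (adjusted p = 0.0954, and 0.00487 to 0.0954 over the alternatives). CCR2 and CCR6 themselves were too low to be tested.

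Among the cytokines, IL6 fell and IL32 rose with each siRNA. IL6, an inflammatory ligand that acts through gp130 (IL6ST), had 1889 and 1911 normalized counts in NC, 921 and 938 with siMEX3A_1 and 671 and 731 with siMEX3A_2. All 4 siRNA libraries lay below NC, with siMEX3A_2 lowest, and the log2 fold changes were -1.03 (SE 0.07, adjusted p = 9.89e-07) and -1.44 (SE 0.07, adjusted p = 3.38e-07). This direction is opposite to that of the CXC chemokines in the same libraries. Of the 50-base windows of IL6, 15.3% also occur in AC073072.1, so its level is uncertain, and no source used here states whether counting used strand. IL32 had 3118 and 3269 in NC, 4463 and 4333 in siMEX3A_1 and 4576 and 4261 in siMEX3A_2. The siRNA groups overlapped each other and lay above NC (log2 fold changes 0.46 and 0.47, adjusted p = 9.55e-05 and 0.000106). IL32 encodes an inflammatory cytokine of epithelial and immune cells.

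Changes of LIF and CSF1 were small, and IL11 had few counts. LIF, of the IL6 family, had 3805 and 3832 in NC and fell slightly with siMEX3A_1, to 3348 and 3226 (-0.22, SE 0.05, adjusted p = 0.00562). With siMEX3A_2 it did not pass, at 3682 and 3609 (-0.07, SE 0.05, adjusted p = 0.314). CSF1, the macrophage growth factor, passed with neither siRNA (-0.17, adjusted p = 0.0554, and -0.14, adjusted p = 0.101), though the siMEX3A_1 value passed when libraries were scaled by total alone (-0.23, adjusted p = 0.0159) and at a mean of at least 50 counts (adjusted p = 0.0246, and 0.0159 to 0.416 over the alternatives). IL11, another gp130 ligand, had 21.8 and 32.2 normalized counts in NC, 44.5 and 32.6 with siMEX3A_1 and 13 and 2 with siMEX3A_2. It was called lower with siMEX3A_2 (-1.83, SE 0.59, adjusted p = 0.0259). That call rests on single libraries, since the value was -1.04 (adjusted p = 0.127) without siMEX3A_2 replicate 2, -1.53 (adjusted p = 0.144) without NC replicate 2 and -3.67 (adjusted p = 0.00461) without siMEX3A_2 replicate 1. Adjusted p ran from 0.00461 to 0.144 over the alternatives, and the call ended in 4 of 12.

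Of the receptors of these ligands, 5 of 9 were tested, and the 4 of the IL6 family all passed with siMEX3A_1. With siMEX3A_1, 1 rose and 3 fell, and with siMEX3A_2, 2 rose and 1 fell. As 52.9% and 50.9% of all tested genes were called, counts in so short a list say little. IL6R, the IL6 binding chain, rose from 414 and 375 to 1034 and 1133 with siMEX3A_1 and 935 and 974 with siMEX3A_2 (log2 fold changes 1.46 and 1.27). IL6ST, the shared signalling chain gp130, went from 4713 and 3999 in NC to 1241 and 1522 with siMEX3A_1, below every other library (-1.66, SE 0.10, adjusted p = 9.61e-07). With siMEX3A_2 it had 5436 and 5729 (0.36, SE 0.10, adjusted p = 0.013), a rise that did not pass without NC replicate 2 (0.24, adjusted p = 0.127) or without siMEX3A_2 replicate 2 (adjusted p = 0.0958, and 1.87e-05 to 0.127 over the alternatives). LIFR, the partner of gp130 in the LIF receptor, fell from 986 and 867 to 239.7 and 348 with siMEX3A_1 (-1.66, SE 0.14, adjusted p = 6.18e-06). With siMEX3A_2 it had 672 and 702 (-0.43, SE 0.12, adjusted p = 0.0162), and this call was lost on leaving out NC replicate 1 (adjusted p = 0.128), siMEX3A_2 replicate 1 (0.12) or siMEX3A_2 replicate 2 (0.0886), with 0.000674 to 0.128 over the alternatives. IL11RA fell with siMEX3A_1 (-0.70, SE 0.22, adjusted p = 0.0231), and that call ended in 6 of 12 alternatives, among them without each NC library and without each siMEX3A_1 library (adjusted p 0.016 to 0.287 over all alternatives).

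The NF-kappaB subunits moved differently from each other. RELB, the partner of the non-canonical route, had 453 and 510.0 normalized counts in NC and 166 and 124 with siMEX3A_1. Both siMEX3A_1 libraries lay far below all others (-1.73, SE 0.14, adjusted p = 5.44e-06), while siMEX3A_2, at 598 and 507, overlapped NC (0.20, SE 0.12, adjusted p = 0.198, 95% interval -0.07 to 0.47). NFKB2, whose product is processed to the partner of RELB, fell from 3109 and 3302 to 1937 and 1754 with siMEX3A_1 and to 2512 and 2579.6 with siMEX3A_2. The groups were separate, and the log2 fold changes were -0.80 (SE 0.07, adjusted p = 6.43e-06) and -0.33 (SE 0.07, adjusted p = 0.00212). NFKB1, the DNA-binding partner of RELA in the canonical dimer, went from 1315 and 1264 down to 924 and 952 with siMEX3A_1 (-0.46, SE 0.06, adjusted p = 0.000172) and up to 1684 and 1716 with siMEX3A_2 (0.40, SE 0.06, adjusted p = 0.000411). RELA, the main transactivating subunit, rose slightly from 1608 and 1596 to 1850.5 and 1880.3 with siMEX3A_1 and 1888 and 1893 with siMEX3A_2 (log2 fold changes 0.22 and 0.24, adjusted p = 0.00863 and 0.00598).

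REL, the remaining subunit, had the widest spread between libraries of a group among the 5 subunits. It had 435 and 261 normalized counts in NC, 290.2 and 560.1 with siMEX3A_1 and 937 and 865 with siMEX3A_2. The siMEX3A_2 libraries lay above the rest (1.37, SE 0.27, adjusted p = 0.00194), and siMEX3A_1 overlapped NC (0.29, SE 0.29, adjusted p = 0.433, 95% interval -0.35 to 0.93). Without siMEX3A_1 replicate 1 the siMEX3A_1 value passed (0.70, adjusted p = 0.0164), and without siMEX3A_1 replicate 2 or NC replicate 2 it turned negative (-0.25, adjusted p = 0.406, and -0.03, adjusted p = 0.948), with adjusted p from 0.0164 to 0.948 over the alternatives. Of its 50-base windows 43.2% also occur in other genes, mostly AC010733.2, so its level is uncertain.

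**Figure D3:**
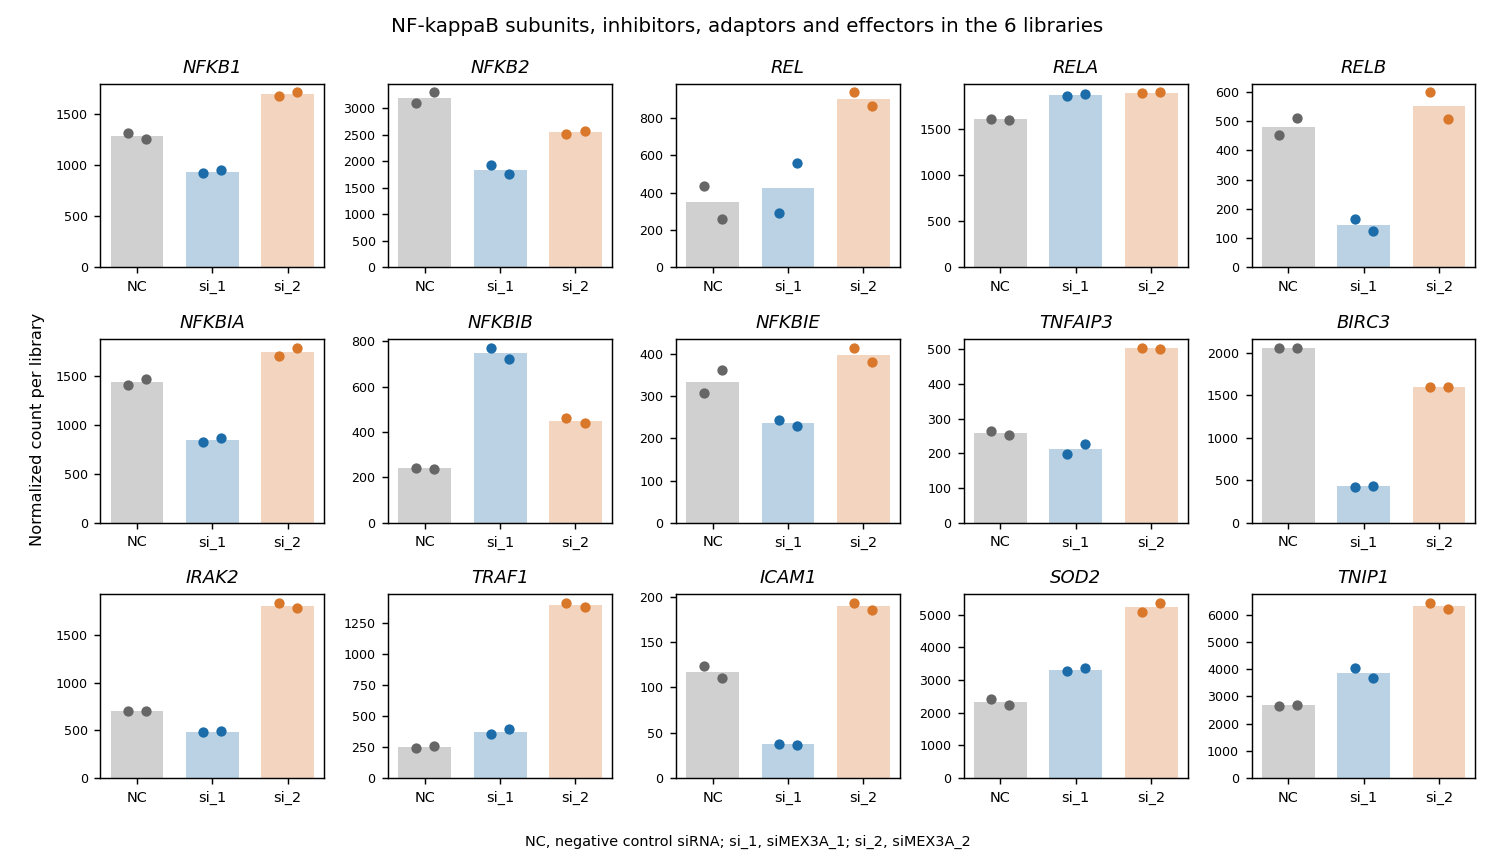
Normalized count on the y axis for 15 subunits, inhibitors, adaptors and effectors, 1 point for each library and a bar for the group mean, with the groups NC, siMEX3A_1 (si_1) and siMEX3A_2 (si_2) on the x axis. NFKB1, NFKBIA, IRAK2 and ICAM1 lie below NC with siMEX3A_1 and above NC with siMEX3A_2, and the 2 REL points of NC and of siMEX3A_1 stand far apart.

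The IkappaB proteins and other regulators were mostly higher with siMEX3A_2 and split with siMEX3A_1. Of 7, 2 rose and 4 fell with siMEX3A_1, and 5 rose and 0 fell with siMEX3A_2. The shares of all tested genes were 27.0% and 25.9% with siMEX3A_1, and 25.2% and 25.7% with siMEX3A_2. NFKBIA, the classical IkappaB and a rapid NF-kappaB target, had 1408 and 1469.7 normalized counts in NC, 825 and 862 with siMEX3A_1 and 1701 and 1785 with siMEX3A_2. NC lay between the siRNA groups, without overlap (-0.77, SE 0.07, adjusted p = 7.18e-06 and 0.28, SE 0.06, adjusted p = 0.00474). NFKBIB, another IkappaB, rose with both, from 243 and 237 to 772 and 722 with siMEX3A_1 and 460.1 and 439 with siMEX3A_2. Its siMEX3A_1 libraries were the highest (1.64, SE 0.08, adjusted p = 1.47e-07 and 0.90, SE 0.08, adjusted p = 1.32e-05), so 2 IkappaB genes moved in opposite directions with siMEX3A_1. NFKBIE, also an IkappaB, fell with siMEX3A_1 from 307 and 362 to 244 and 229.6 (-0.50, SE 0.11, adjusted p = 0.00305). With siMEX3A_2 it missed the threshold (0.25, SE 0.10, adjusted p = 0.0628), and it passed once NC replicate 2 was left out (0.37, adjusted p = 0.0298, and 0.0298 to 0.335 over the alternatives). BCL3, a nuclear IkappaB that works with NFKB1 and NFKB2 dimers, fell with siMEX3A_1 (569.9 and 612 in NC against 325 and 325, -0.86, SE 0.10, adjusted p = 4.9e-05). It overlapped NC with siMEX3A_2 (-0.04, 95% interval -0.24 to 0.17).

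The ubiquitin-linked brakes rose with siMEX3A_2. TNIP1, which binds TNFAIP3 and linear ubiquitin, went from 2657 and 2691 to 4037 and 3679 with siMEX3A_1 and 6425 and 6219.6 with siMEX3A_2. All groups were separate (0.53, SE 0.06, adjusted p = 4.49e-05 and 1.24, SE 0.06, adjusted p = 3.92e-07). TNFAIP3, a ubiquitin-editing enzyme that shuts off the pathway, had 266 and 253 in NC and 505 and 503 with siMEX3A_2 (0.96, SE 0.09, adjusted p = 1.71e-05). With siMEX3A_1 it had 199 and 228, a small fall (-0.28, SE 0.10, adjusted p = 0.0341) whose call ended in 10 of 13 alternatives. These included every single library left out except siMEX3A_1 replicate 2, with adjusted p from 0.0689 to 0.238, and the replicate block (0.0538). CYLD, a deubiquitinase, rose with siMEX3A_2 (0.29, SE 0.07, adjusted p = 0.00635) but not without NC replicate 2 (adjusted p = 0.0592) or siMEX3A_2 replicate 2 (0.056), with 0.00333 to 0.0592 over the alternatives. With siMEX3A_1 CYLD did not pass (-0.06, adjusted p = 0.49).

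Among receptors, adaptors and ubiquitin ligases, 6 of 7 rose and 1 fell with siMEX3A_2, where 25.2% and 25.7% of all tested genes did. With siMEX3A_1, 3 rose and 2 fell, against 27.0% and 25.9% of all tested genes, and so short a list says little. TRAF1, an adaptor and NF-kappaB target, had 242 and 259 normalized counts in NC, 355 and 393 with siMEX3A_1 and 1414 and 1384 with siMEX3A_2. The siMEX3A_2 libraries stood far above the others, and this was the largest rise with that siRNA among the members (2.48, SE 0.07, adjusted p = 4.39e-08, against 0.58, SE 0.08, adjusted p = 0.000274 with siMEX3A_1). IRAK2, a kinase-like adaptor of interleukin-1 and Toll-like receptors, went from 705 and 707 down to 479 and 499 (-0.53, SE 0.07, adjusted p = 0.000101) and up to 1843 and 1784 (1.36, SE 0.06, adjusted p = 2.81e-07). BIRC3, an inhibitor-of-apoptosis ubiquitin ligase and NF-kappaB target, fell from 2057 and 2054 to 421 and 432 with siMEX3A_1 and to 1589 and 1600.2 with siMEX3A_2. The siMEX3A_1 libraries were far the lowest (-2.27, SE 0.06, adjusted p = 1.17e-08 against -0.37, SE 0.06, adjusted p = 0.00052). Its neighbour and paralogue BIRC2 rose instead, from 683 and 653 to 783 and 829 with siMEX3A_1 and 1162 and 1203 with siMEX3A_2 (0.27, SE 0.07, adjusted p = 0.00638 and 0.82, SE 0.06, adjusted p = 6.17e-06). The authors' deposited table did not call BIRC2 with siMEX3A_1 (adjusted p = 0.0988, and 0.00565 to 0.0988 over the alternatives). BIRC2 and BIRC3 share 11 windows of 50 bases, 0.224% and 0.144% of their own.

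IL1R1, the signalling receptor of interleukin-1, rose from 208 and 196 to 249.8 and 273 with siMEX3A_1 and 392 and 409.6 with siMEX3A_2 (log2 fold changes 0.37, SE 0.10, adjusted p = 0.00863 and 0.99, SE 0.09, adjusted p = 1.85e-05). The siMEX3A_1 call ended in 4 of 13 alternatives, among them without NC replicate 2 (adjusted p = 0.0572) and without siMEX3A_1 replicate 2 (0.0503), with 0.00962 to 0.195 over all of them. LTBR, the lymphotoxin receptor of the non-canonical route, rose with siMEX3A_2 from 4204 and 4044 to 5651 and 5301 (0.41, SE 0.05, adjusted p = 0.000192) and did not pass with siMEX3A_1 (0.10). Of its windows 8.75% occur in other genes. TRAF2, which recruits BIRC2 and BIRC3 to receptors, was called higher with siMEX3A_2 (0.27, SE 0.09, adjusted p = 0.0331), a call that ended in 8 of 13 alternatives, among them without each NC and each siMEX3A_2 library (adjusted p 0.0537 to 0.169) and with the replicate block (0.0517). With siMEX3A_1 TRAF2 missed the threshold (-0.21, SE 0.10, adjusted p = 0.092), and it passed once siMEX3A_1 replicate 1 was left out (-0.31, adjusted p = 0.038) or libraries were scaled by total alone (adjusted p = 0.0407, and 0.038 to 0.463 over the alternatives).

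The effectors rose in 4 of 5 cases with siMEX3A_2, where 25.2% of all tested genes rose. They were split with siMEX3A_1, where 27.0% of all tested genes rose and 25.9% fell. ICAM1, the adhesion molecule that holds leukocytes, had 123 and 110.2 normalized counts in NC, 37.4 and 36.7 with siMEX3A_1 and 193 and 185 with siMEX3A_2. NC lay between the siRNA groups, with a fall of 3.14-fold on one side (-1.65, SE 0.16, adjusted p = 2.09e-05) and a rise on the other (0.70, SE 0.13, adjusted p = 0.00172). Of its 50-base windows 21.2% also occur in other genes, mostly AC011511.5, so its level is uncertain too. TNFAIP2, an NF-kappaB target with a role in membrane protrusions, was also on both sides of NC (2768 and 2894), at 2471 and 2431 with siMEX3A_1 and 4191 and 4078 with siMEX3A_2. The fall was small (-0.21, SE 0.05, adjusted p = 0.00933) and did not pass without NC replicate 2 (adjusted p = 0.0803, and 0.00254 to 0.0803 over the alternatives), and the rise was larger (0.55, SE 0.05, adjusted p = 2.67e-05). SOD2, the mitochondrial superoxide dismutase, rose with both, from 2414 and 2229 to 3273 and 3371 with siMEX3A_1 and 5095 and 5365 with siMEX3A_2 (0.52, SE 0.06, adjusted p = 6.16e-05 and 1.17, SE 0.06, adjusted p = 6e-07). Of its windows 14.4% occur in other genes, ACAT2 first among them. PTGS2, the inducible prostaglandin synthase, rose from 24.8 and 25.4 to 70.8 and 74.5 with siMEX3A_1 and 116 and 154 with siMEX3A_2 (1.53, SE 0.23, adjusted p = 0.000335 and 2.42, SE 0.21, adjusted p = 1.34e-05). CFLAR, which blocks death receptor signalling, fell slightly with siMEX3A_1 (-0.24, SE 0.05, adjusted p = 0.00314) and did not pass with siMEX3A_2 (-0.13, adjusted p = 0.0661). It passed there in 3 of 13 alternatives (adjusted p 0.0352 to 0.307 over all), and 14.1% of its windows occur in other genes.

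The direct comparison of the 2 siRNAs asks where they differed on the members. With siMEX3A_1, 7 of 35 members were higher and 23 lower than with siMEX3A_2, against 26.0% and 25.5% of all tested genes (51.6% in either direction). The median difference was -0.55 for the members and -0.00068 for all tested genes. At least 2-fold differences were called in 10 members, where 14.9% of all tested genes reached that size. The 7 that were higher with siMEX3A_1 were the CXC chemokines CXCL1 (0.47), CXCL2 (0.48), CXCL3 (0.86) and CXCL8 (0.84), with IL6 (0.41), IL11 (2.34) and NFKBIB (0.73). The IL11 difference ranged widely, at 4.19 (adjusted p = 0.00186) without siMEX3A_2 replicate 1 and 1.56 (adjusted p = 0.0318) without siMEX3A_2 replicate 2.

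Lower with siMEX3A_1 were all 7 receptors, adaptors and ligases, 6 of 7 IkappaB proteins and other regulators, 4 of 5 subunits and 4 of 5 effectors. Of all tested genes, 25.5% were lower in this comparison. CCL2 differed most, by -3.50 (SE 0.13, adjusted p = 5.29e-08). ICAM1 followed at -2.35 (SE 0.16, adjusted p = 1.6e-06), then RELB at -1.93 (SE 0.14, adjusted p = 2.74e-06), TRAF1 at -1.90 (SE 0.07, adjusted p = 5.2e-08), BIRC3 at -1.90 (SE 0.06, adjusted p = 3.24e-08) and IRAK2 at -1.89 (SE 0.06, adjusted p = 3.24e-08). TNFAIP3 differed by -1.24, NFKBIA by -1.05 and NFKB1 by -0.86. REL differed by -1.08 (SE 0.26, adjusted p = 0.00626), and by -1.63 and -0.68 without siMEX3A_1 replicates 2 and 1, and the call ended without siMEX3A_2 replicate 1 (adjusted p = 0.0523) and with DESeq2 (0.0543), with 9.43e-05 to 0.0543 over the alternatives. LIF was called lower with siMEX3A_1 (-0.15, SE 0.05, adjusted p = 0.0351), and that call ended in 9 of 12 alternatives, including each single library left out and the replicate block (0.0685), with adjusted p from 0.0114 to 0.182 over all of them. No difference was detected for CCL20 (-0.37, 95% interval -1.12 to 0.38), IL32 (-0.13 to 0.12), CSF1 (-0.18 to 0.12), RELA (-0.15 to 0.11) or CFLAR (-0.23 to 0.00), and CFLAR passed in 2 of 12 alternatives.

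**Figure D4:**
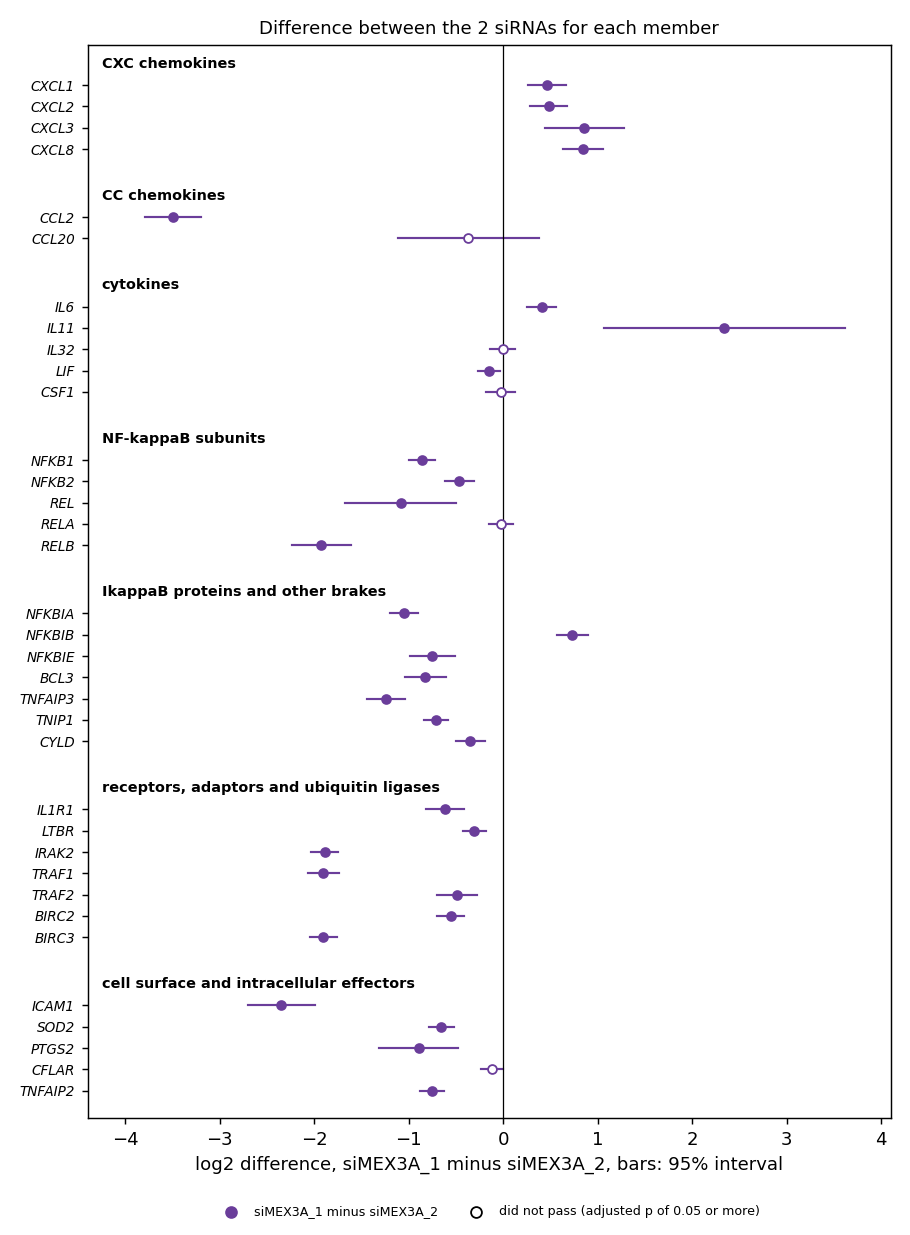
Log2 difference between siMEX3A_1 and siMEX3A_2 for each of the 35 members on the x axis, with its 95% interval, ordered by role on the y axis. Filled points passed the test and open points did not. The 4 CXC chemokines lie right of 0, and all 7 receptors, adaptors and ubiquitin ligases lie left of 0.

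The rest of the pathway was described by 2 lists of genes that are not members. All 36 genes of upstream signalling, from receptors to the IkappaB kinase and linear ubiquitin enzymes, were tested. With siMEX3A_1, 18 rose and 12 fell (median log2 fold change 0.24), and with siMEX3A_2, 19 rose and 8 fell (median 0.24), where the shares of all tested genes were 27.0% and 25.9%, and 25.2% and 25.7%. The falls with siMEX3A_1 numbered 7 in the authors' deposited table, and from 7 to 13 over the alternatives. RBCK1, part of the linear ubiquitin ligase, rose from 1999.7 and 2038 normalized counts to 5080.2 and 4769 with siMEX3A_1 and 4573 and 4243 with siMEX3A_2 (1.29, SE 0.06, adjusted p = 1.53e-07 and 1.13, SE 0.06, adjusted p = 7.62e-07). TNFRSF1A, the main receptor of tumour necrosis factor, rose by 0.73 and 0.65 on the log2 scale. IRAK1, the kinase of the interleukin-1 route, fell with siMEX3A_1 from 2153 and 2165 to 843 and 787 (-1.41, SE 0.07, adjusted p = 2.05e-07) and had 2823 and 2592 with siMEX3A_2 (0.33, SE 0.07, adjusted p = 0.00232). In the siMEX3A_1 libraries IRAK1 and IRAK2 were thus both below NC, and in the siMEX3A_2 libraries both were above it. TRAF5 fell with siMEX3A_1 (-1.31) and siMEX3A_2 (-0.44), and TRAF3, a brake of the non-canonical route, rose by 0.43 and 0.85. OTULIN, which removes linear ubiquitin, fell from 631 and 624 to 449 and 496 with siMEX3A_1 and 197 and 234 with siMEX3A_2 (-1.54, SE 0.10, adjusted p = 1.71e-06).

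Of 36 further NF-kappaB targets, 21 were tested and the remaining 15, among them TNF, IL1A and IL1B, had too few counts. With siMEX3A_1, 4 rose and 10 fell (median log2 fold change -0.43), and with siMEX3A_2, 9 rose and 7 fell (median 0.23), against the same shares of all tested genes. The falls with siMEX3A_2 numbered 4 in the authors' deposited table, and from 4 to 8 over the alternatives. The chemokine CX3CL1 fell with both siRNAs, from 667 and 665 to 235 and 222 with siMEX3A_1 and 177 and 178 with siMEX3A_2 (-1.54, SE 0.08, adjusted p = 2.18e-07 and -1.91, SE 0.08, adjusted p = 1.92e-07). GADD45B, a stress response gene, fell by a similar size with each (-0.88 and -0.87). SAA1, an acute phase protein, fell with siMEX3A_1 from 172 and 191 to 37.4 and 32.6 (-2.37, SE 0.16, adjusted p = 1.5e-06), and with siMEX3A_2 it had 165 and 174, overlapping NC (-0.10). IER3, an early response gene, rose by 1.09 in siMEX3A_1 and by 0.23 in siMEX3A_2, and the siMEX3A_2 rise did not pass without NC replicate 1 (adjusted p = 0.0688) or siMEX3A_2 replicate 2 (0.0757), with 0.00625 to 0.0757 over the alternatives. NFKBIZ, a nuclear IkappaB, had 2453 and 2201 in NC, 2115 and 2421 with siMEX3A_1 and 853 and 831 with siMEX3A_2. Only the siMEX3A_2 libraries stood apart (-1.47, SE 0.08, adjusted p = 1.11e-06). SDC4, a cell surface proteoglycan, was below NC with siMEX3A_1 (-0.66, SE 0.07, adjusted p = 2.51e-05) and above it with siMEX3A_2 (1.13, SE 0.06, adjusted p = 1.05e-06). The urokinase gene PLAU rose by 0.44 and 0.65.

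**Figure D5:**
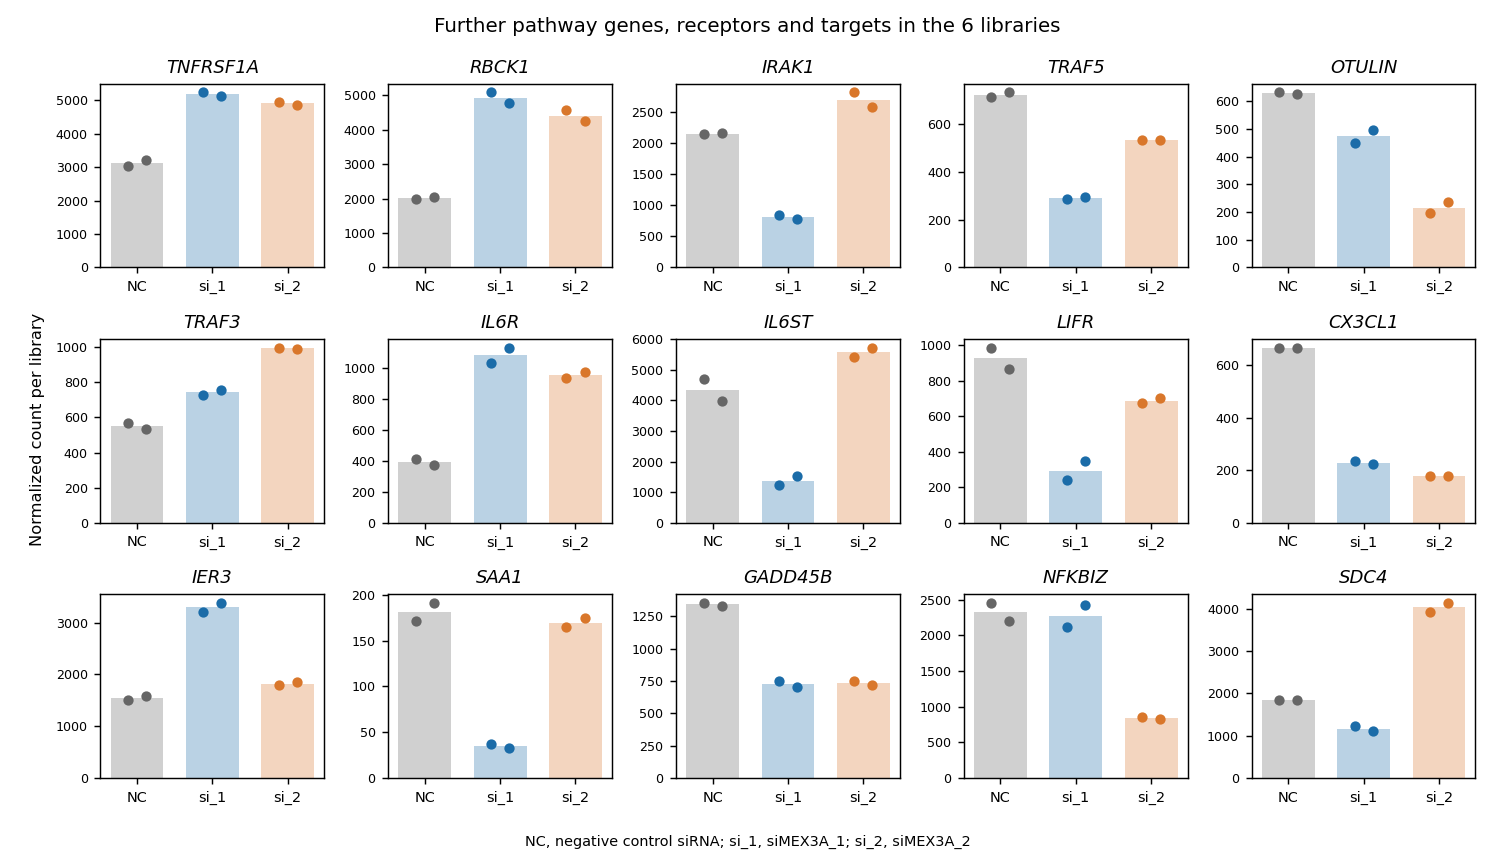
Normalized count on the y axis for 15 pathway genes that are not members, 1 point for each library and a bar for the group mean, with the groups NC, siMEX3A_1 (si_1) and siMEX3A_2 (si_2) on the x axis. IRAK1, IL6ST, LIFR and SAA1 are lowest with siMEX3A_1, OTULIN and NFKBIZ are lowest with siMEX3A_2, and CX3CL1 is low with both.

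Members with and without the kappaB consensus before their start were found among both the rises and the falls. Of the 16 members that carry it, 7 rose and 7 fell with siMEX3A_1, and 12 rose and 3 fell with siMEX3A_2. Of the 14 members with a window and no such match, 7 rose and 4 fell with siMEX3A_1, and 12 rose and 1 fell with siMEX3A_2. Of all tested genes 27.0% rose and 25.9% fell with siMEX3A_1, and 25.2% and 25.7% with siMEX3A_2. The 5 members without a window are in neither set. Among them CCL2, the largest fall, and LIF, NFKBIE and RELB were lower with siMEX3A_1, where the median of all 35 members was -0.06. In the members with a window, the median log2 fold changes were 0.11 with a match and 0.25 without one for siMEX3A_1, and 0.47 and 0.76 for siMEX3A_2. These are descriptions of chosen genes, with no test. CXCL1, whose match is printed above, rose with siMEX3A_1, and BIRC3, also with a match, fell in the same libraries.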

How the data were processed

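The data are RNA sequencing libraries of ACHN cells in 3 groups of 2. Per the labels' protocols, BGI prepared and read single-end libraries. The submitters' processing notes list STAR, RSEM, hg19 and GRCh37, without roles or versions. The deposited expected counts are the authors' estimated counts per gene, not normalized, per the file headers. Other deposited columns hold the comparisons that the authors made, with log2 fold changes, p-values and scores (mean count and test statistic), per the file headers.

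Expected counts were rounded and tested with edgeR 4.0.16 (R 4.3.3): TMM scaling, the default low-count filter, the quasi-likelihood test and 1 spread over all 6 libraries, with Benjamini-Hochberg adjustment over 18583 genes and calls at 0.05. The biological coefficient of variation was 6.26%. SE was obtained as the size of the log2 fold change over the root of the F statistic. Normalized counts are relative to the mean TMM-scaled library. Of the 60409 rows, 4481 shared a name and were tested without one. Pairs of libraries of a group differed by more than sampling noise (chi-square over degrees of freedom 2.3 to 5.12). The fit was also run on simulated counts that gave every gene the same spread. Measured genes need not share a spread, so that run does not check the calls made here.

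The members and lists were chosen with earlier results of these data known. The text names all members, MEX3A and, of each further list, up to 4 called genes by lowest p against NC. Alternatives were DESeq2 1.42.0, other scaling and filters, only the groups compared, a replicate block, each library left out, and the authors' deposited table. Markers covered leukocytes, endothelium, fibroblasts and renal epithelium. One marker is not reported here and is left out of its list. Windows of 50 bases were compared between genes in GENCODE release 29 transcripts, on either strand.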

Additional observations from a re-analysis of the deposited data

Results flagged for a closer look

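Of the 30 members that differed between the siRNAs in the direct test, 6 had also been called in opposite directions against NC, lower with siMEX3A_1 and higher with siMEX3A_2. The share of all tested genes with opposite calls was not counted. Against NC, 52.9% of all tested genes were called with siMEX3A_1 and 50.9% with siMEX3A_2, so the 6 are listed without being read as a trait of the members. The differences of these 6 members, siMEX3A_1 minus siMEX3A_2, were -0.86 for NFKB1, -1.05 for NFKBIA, -1.24 for TNFAIP3, -1.89 for IRAK2, -2.35 for ICAM1 and -0.75 for TNFAIP2 on the log2 scale, with edgeR adjusted p-values from 3.24e-08 (IRAK2) to 2.99e-06 (TNFAIP3). Each kept its direction and its call in the direct comparison under all 12 alternatives run. The siMEX3A_1 fall of TNFAIP3 against NC was the least stable part of this group (adjusted p = 0.0341, and 0.0128 to 0.387 over the alternatives). MEX3A was lower than in NC by 38.9% with siMEX3A_1 and 25.3% with siMEX3A_2. Between the siRNAs no MEX3A difference was detected (-0.29, 95% interval -0.70 to 0.11, edgeR adjusted p = 0.212). The part of the MEX3A levels in the members' values was not tested.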

How the results depend on the processing

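Every count of members called stayed within 1.5 times its value under each alternative. With siMEX3A_1 the rises ran from 11 to 15 and the falls from 13 to 17, with siMEX3A_2 the rises from 22 to 24 and the falls from 3 to 5, and in the direct comparison 6 to 7 were higher and 21 to 24 lower. Same-numbered replicates did not deviate together (correlations -0.112, 0.027 and -0.00754 between groups), so the labels' numbers were not taken as pairs. With the replicate block, 14 members rose and 14 fell with siMEX3A_1, 23 and 4 with siMEX3A_2, and 7 were higher and 22 lower in the direct comparison. Of 1362 single values of MEX3A and the members over 13 alternatives, 1296 kept direction and call, 44 lost the call, 12 gained it and 10 changed sign.

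No sign change was of a called value. With each library left out in turn, REL with siMEX3A_1 ran from -0.25 (without siMEX3A_1 replicate 2) to 0.71 (without NC replicate 1). CYLD with siMEX3A_1 ran from -0.11 (without siMEX3A_1 replicate 2) to 0.00072 (without siMEX3A_1 replicate 1). NFKBIZ with siMEX3A_1 ran from -0.13 (without siMEX3A_1 replicate 2) to 0.067 (without siMEX3A_1 replicate 1). BCL3 with siMEX3A_2 ran from -0.17 (without siMEX3A_2 replicate 1) to 0.096 (without siMEX3A_2 replicate 2). IL32 between the siRNAs ran from -0.061 (without siMEX3A_2 replicate 2) to 0.048 (without siMEX3A_2 replicate 1). CSF1 between the siRNAs ran from -0.049 (without siMEX3A_1 replicate 2) to 0.0078 (without siMEX3A_1 replicate 1). RELA between the siRNAs ran from -0.026 (without siMEX3A_1 replicate 2) to 0.00070 (without siMEX3A_1 replicate 1). GADD45B between the siRNAs ran from -0.050 (without siMEX3A_1 replicate 1) to 0.036 (without siMEX3A_1 replicate 2). With DESeq2, IL32 between the siRNAs was 0.0014. RBCK1, called higher with siMEX3A_1 in that comparison (0.16, SE 0.06, adjusted p = 0.0459), lost the call in 10 of 12 alternatives. The cause of these changes was not tested. CCL20, IL11, PTGS2 and CXCL3 had the lowest counts of the members in NC, which limits their precision.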

Other observations

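CSF2, which encodes the growth factor of granulocytes and macrophages and belongs to the further NF-kappaB targets, was chosen here after its values were seen. It had 10.9 and 7.8 normalized counts in NC and 9.1 and 13.3 with siMEX3A_1, and these groups overlapped. With siMEX3A_2 it had 85 and 129, above every other library. The edgeR log2 fold changes were 0.25 (SE 0.46, adjusted p = 0.677) with siMEX3A_1 and 3.50 (SE 0.34, adjusted p = 2.37e-05) with siMEX3A_2.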
